A study of Mus musculus with 24 samples.

Results

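Imprinted genes, which are expressed from 1 parental copy, were followed through 16 deposited CUT&RUN peak lists from a mouse fibroblast line. The 36 genes described here were taken from a fixed list of imprinted genes and placed by their RefSeq positions on mm10. Each was given a window of the gene body plus 5 kb each side, and they are 36 of the 49943 genes measured in the same way. CUT&RUN releases the DNA under an antibody with a tethered nuclease, so a peak marks where the bound protein or histone mark lay. The study's title names JUNB, a factor of the AP-1 family, and H1.0, a linker histone, as partners in keeping cell identity. Some of the 36 windows overlap and share peaks: they form 28 loci, of which 7 hold 15 genes and 21 hold 1 gene each.

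The cells were the iMGT-Myh6-eGFP-MEF line, mouse embryonic fibroblasts in which doxycycline switches on Mef2c, Gata4 and Tbx5 (MGT) and which carry an eGFP reporter of the heart gene Myh6. All groups come from this line, so every group carries the inducible genes and the reporter. MEF2C was mapped at day 1 of induction with 1 µg/mL doxycycline after transfection with siJunb (n = 3), siH1f0 (n = 3) or siControl (n = 2). The heterochromatin mark H3K9me3 was mapped in siControl cells at day 1 of induction (n = 2) and in ground-state cells, which had neither siRNA nor induction (n = 2). The linker histone H1.0, product of H1f0, was mapped in the same way, in siControl cells at day 1 (n = 2) and in the ground state (n = 2). Day 1 and ground state therefore differ in siRNA transfection and in induction together. Replicates are labelled biological, but the labels do not say whether cultures or wells were repeated, so p-values reflect the spread among these samples only, and that spread may be technical. Another 8 IgG samples were not analysed here, and neither was RNA or protein of Junb or H1f0, so the knockdowns were not checked.

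An imprinted cluster is governed by a control region whose DNA is methylated on the copy from 1 parent and bare on the other, set in egg or sperm. On the methylated copy, zinc finger proteins such as ZFP57 bind the methylated DNA and recruit TRIM28 and SETDB1, which lays down H3K9me3. Such a differentially methylated region (DMR) may sit at a gene's own start, inside a host gene, or at a distance from the genes that it governs. Lists of peaks do not tell the parental copies apart.

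The promoters on which the H3K9me3 results turn are shown first. Each is 250 bases before to 50 bases after a start, from RefSeq (GRCm38.p6), written 5′ to 3′ on the gene's own strand. Capitals mark the hexamer TGCCGC on either strand (GCGGCA on the other), the core that ZFP57 recognises when it is methylated. The first 6 lie at starts with H3K9me3 within 1 kb in all 4 lists, and the last, at Kcnq1ot1, is shown because its start had H3K9me3 in none. They lie at chr10:13090582-13090881 (Plagl1, + strand), chr6:30737800-30738099 (Mest, + strand), chr2:157559828-157560127 (Nnat, + strand), chr6:58907077-58907376 (Nap1l5, − strand), chr11:22971755-22972054 (Zrsr1, + strand), chr12:109540746-109541045 (Meg3, + strand) and chr7:143296498-143296797 (Kcnq1ot1, − strand).
Plagl1: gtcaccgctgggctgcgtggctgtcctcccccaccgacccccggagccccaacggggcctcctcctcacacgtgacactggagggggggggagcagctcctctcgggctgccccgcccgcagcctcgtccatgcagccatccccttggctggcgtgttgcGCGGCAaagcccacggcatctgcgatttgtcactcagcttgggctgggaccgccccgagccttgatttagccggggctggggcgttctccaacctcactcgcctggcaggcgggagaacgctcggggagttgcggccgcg
Mest: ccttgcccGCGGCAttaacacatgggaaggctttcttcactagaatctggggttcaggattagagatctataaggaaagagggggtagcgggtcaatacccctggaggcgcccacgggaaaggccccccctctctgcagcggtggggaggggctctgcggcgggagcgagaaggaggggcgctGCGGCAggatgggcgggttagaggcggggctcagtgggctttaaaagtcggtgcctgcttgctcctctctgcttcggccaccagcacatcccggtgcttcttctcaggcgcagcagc
Nnat: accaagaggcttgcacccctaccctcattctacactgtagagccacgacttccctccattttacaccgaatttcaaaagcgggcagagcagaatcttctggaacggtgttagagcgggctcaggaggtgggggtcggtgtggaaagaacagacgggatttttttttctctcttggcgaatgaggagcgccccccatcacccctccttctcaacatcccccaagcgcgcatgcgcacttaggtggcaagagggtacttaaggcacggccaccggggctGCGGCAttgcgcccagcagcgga
Nap1l5: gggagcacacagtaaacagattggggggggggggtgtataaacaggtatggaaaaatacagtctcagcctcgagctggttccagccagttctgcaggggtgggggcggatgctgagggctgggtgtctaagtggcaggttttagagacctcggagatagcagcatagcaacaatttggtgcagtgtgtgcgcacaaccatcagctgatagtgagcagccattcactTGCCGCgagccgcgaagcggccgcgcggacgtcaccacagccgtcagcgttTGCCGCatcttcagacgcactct
Zrsr1: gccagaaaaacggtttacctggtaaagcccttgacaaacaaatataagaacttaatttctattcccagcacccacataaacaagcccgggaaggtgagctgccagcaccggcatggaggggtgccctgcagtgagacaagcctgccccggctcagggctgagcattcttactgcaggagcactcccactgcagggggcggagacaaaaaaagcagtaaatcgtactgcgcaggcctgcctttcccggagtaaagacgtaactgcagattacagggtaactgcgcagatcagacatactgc
Meg3: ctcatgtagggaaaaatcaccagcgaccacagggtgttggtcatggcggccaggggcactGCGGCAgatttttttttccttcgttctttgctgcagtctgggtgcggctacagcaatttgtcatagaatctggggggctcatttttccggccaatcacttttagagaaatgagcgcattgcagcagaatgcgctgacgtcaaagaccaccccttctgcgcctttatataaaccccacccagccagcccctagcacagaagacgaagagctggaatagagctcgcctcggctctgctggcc
Kcnq1ot1: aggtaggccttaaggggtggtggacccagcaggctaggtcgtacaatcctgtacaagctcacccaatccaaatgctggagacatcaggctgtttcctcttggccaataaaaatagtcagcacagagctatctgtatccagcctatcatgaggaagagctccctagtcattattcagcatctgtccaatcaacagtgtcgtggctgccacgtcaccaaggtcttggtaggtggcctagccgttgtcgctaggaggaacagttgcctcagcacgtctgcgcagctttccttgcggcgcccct

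The hexamer occurred in 8 of the 11 promoter windows of imprinted genes with H3K9me3 in all 4 lists (72.7%), in 4 of the 28 with H3K9me3 in none (14.3%), and in 11.6% of all 32851 promoter windows. The 3 groups also differed in CpG content, with a median of 17 CpGs per window where H3K9me3 was in all 4 lists, 12.5 where it was in none and 7 over all windows. Mest gives 2 of the 11 windows from starts 3 bases apart, and Commd1 and Zrsr1 give neighbouring windows, so these are not 11 separate places. Zrsr1 and Kcnq1ot1 show no hexamer in the bases printed. The motif of MEF2 occurred in 0 of the 45 promoter windows of imprinted genes, against 3.19% of all windows, and the AP-1 motif TGANTCA in 2 of 45 (4.44%), against 7.81%. Both strands were searched for each motif, and 8 of the 36 genes had no promoter entry.

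The lists differed widely in length. H3K9me3 lists held 69439 and 44625 peaks over 109.3 and 363.37 Mb at day 1, against 24219 and 65706 peaks over 65.86 and 315.03 Mb in the ground state. H1.0 lists covered 911.02 and 28.57 Mb at day 1, against 92.97 and 1109.45 Mb in the ground state, so that lists of the same group differed more than the groups did, and MEF2C lists covered 13.45 to 89.82 Mb. The labels give 30 M reads for every sample, and aligned read numbers were not used here. Presence of a peak is therefore read beside the same share over all genes. Fibroblast marker genes were held by H3K9me3 in all 4 lists in 0 of 8 cases, against 14.4% of all genes. Of the same 8 genes, 5 had a peak in no list, a share close to the 60.8% of all genes. These counts do not check the labelled cell type, since the lists hold no RNA.

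H3K9me3 lay at most of the 36 imprinted genes, in day 1 and ground-state cells alike. A peak in the window was found in all 4 lists at 22 of the 36 genes, against 14.4% of all genes. This does not extend to imprinted genes in general: of 23 others, described at the end, 3 held a peak in all 4 lists. At day 1 both lists held 26 genes, against 23.2% of all genes, and in the ground state both held 22, against 15.5% of all genes. By list, 26 and 27 genes were held at day 1 and 22 and 27 in the ground state, while 25.6% and 31.4% of all genes were held at day 1 and 15.7% and 35.6% in the ground state. The windows of the imprinted genes were longer, with a median of 38.7 kb against 16.0 kb over all genes. Among protein-coding genes, whose median window was 27.2 kb, the share held in all 4 lists was 16.1%. No set of genes was matched for window length, and the part of window length in these counts was not tested.

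The share of sequence covered lay closer to that of all genes than the share of genes held did. H3K9me3 covered 3.65% and 8.99% of the joined windows of imprinted genes at day 1 and 2.95% and 9.52% in the ground state. Over the windows of all genes it covered 3.42% and 10.6% at day 1 and 2.15% and 9.62% in the ground state. When each list was cut to its peaks of highest signal, up to the covered length of the shortest list, the genes held in all 4 lists came to 8, against 6.47% of all genes: Mest, Igf2, Kcnq1ot1, Plagl1, Meg3, Nnat, Blcap and Inpp5f. Under the same limit both day 1 lists held 9 genes, against 8.24% of all genes, and both ground-state lists held 11, against 8.11%.

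**Figure D1:**
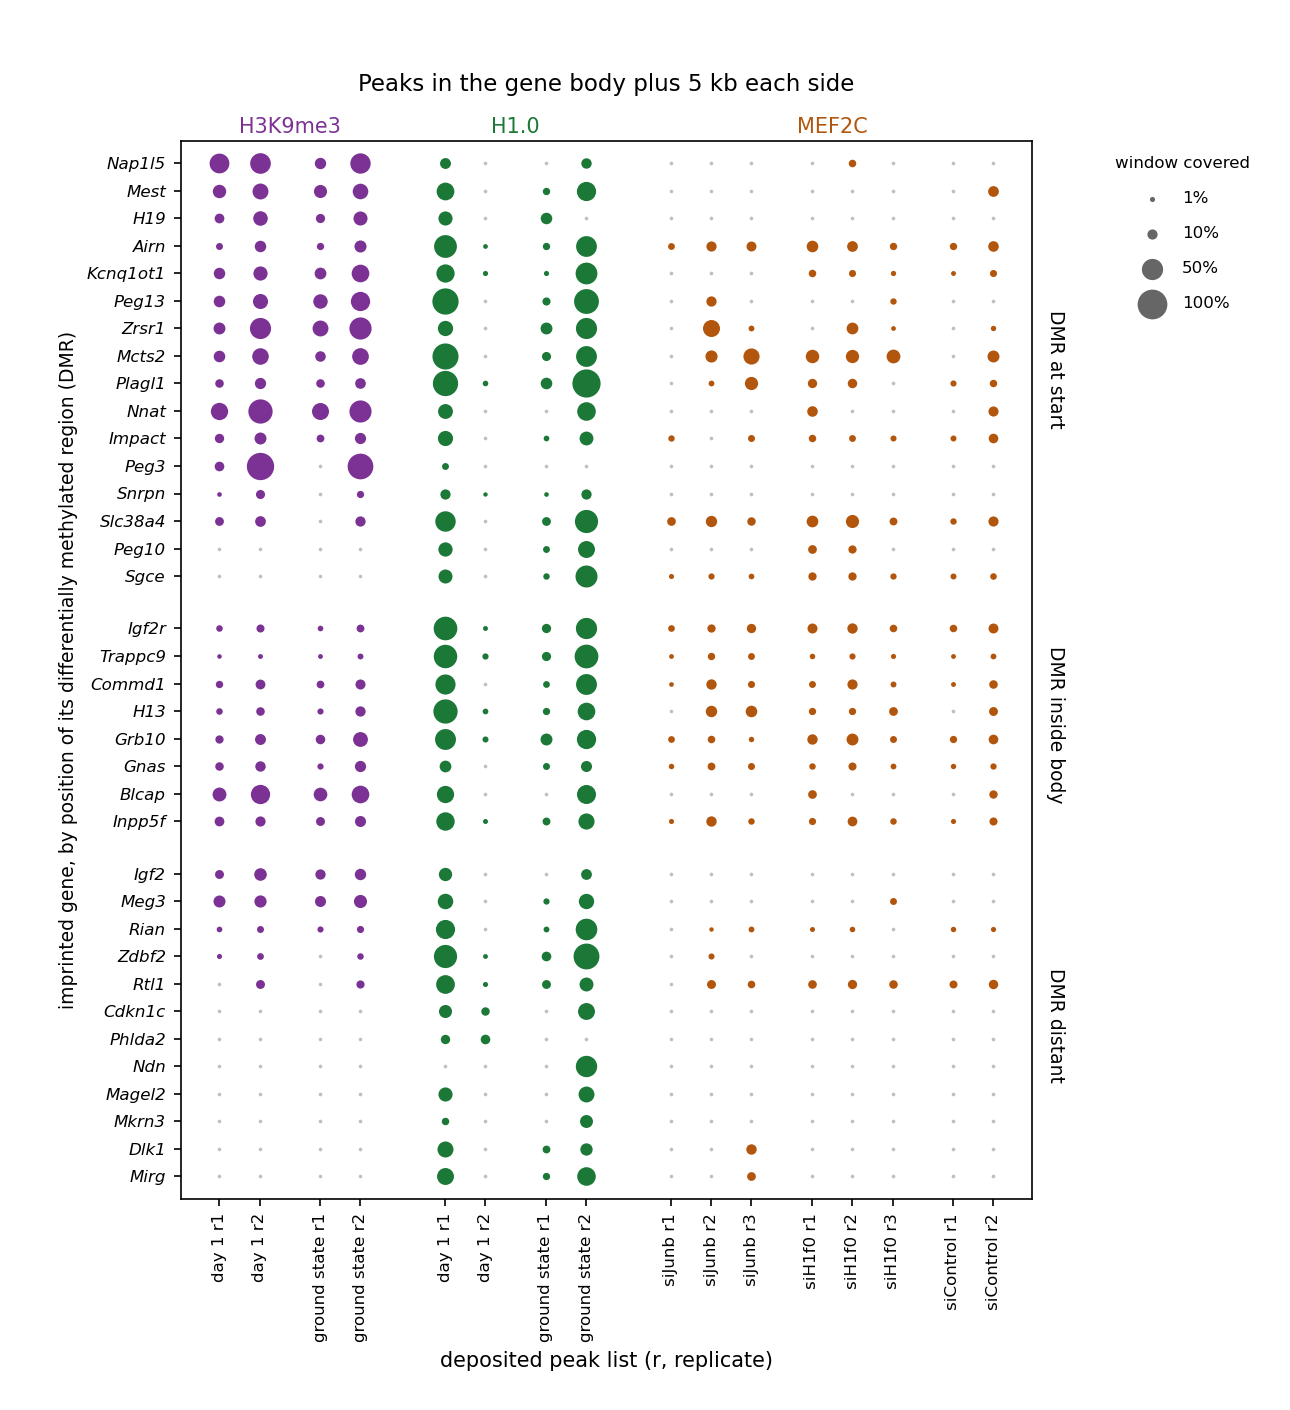
Share of each gene's window covered by peaks (dot area grows with the percent of the window; a grey point is 0) for 36 imprinted genes (rows, grouped by the place of their DMR) in 16 peak lists (columns). H3K9me3 is in all 4 lists at all 8 host genes and 11 of 16 genes with a DMR at their start, while 7 of the 12 genes with a distant DMR show none.

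H3K9me3 was found mainly at genes whose DMR lies at the start or inside the body. Of the 16 genes with a DMR at or near their own start, 11 held H3K9me3 in all 4 lists, and so did all 8 of the host genes and long genes with a DMR inside the body. Of the 12 genes whose DMR lies at a distance, 3 did: Igf2, Meg3 and Rian. A gene counts here with a peak anywhere in its window, so the mark need not lie at the DMR. Kcnq1ot1 is among the 11, yet no list had H3K9me3 within 1 kb of its start. The host gene group is not independent of the first: Igf2r, Trappc9, Commd1, H13 and Blcap, 5 of its 8, overlap Airn, Peg13, Zrsr1, Mcts2 and Nnat and are counted with the same peaks. Windows also differed in length, with a median of 95.0 kb for the group with a DMR inside the body, 30.8 kb for the group with a DMR at the start and 22.7 kb for the distant group. By parental expression in mouse, 12 of 23 paternally expressed and 10 of 13 maternally expressed genes held it in all 4 lists. These groupings come from general knowledge of mouse imprinting, not from the files, and no test was made over them.

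No peak of H3K9me3 lay in the window of 9 genes in any list, against 60.8% of all genes. They were Peg10, derived from a retrotransposon, and its neighbour Sgce, a sarcoglycan; Cdkn1c, an inhibitor of the cell cycle, and Phlda2, which limits placental growth; Ndn, Magel2 and Mkrn3 of the Snrpn cluster; and Dlk1 and Mirg of the Dlk1-Meg3 cluster. Peg10 and Sgce share a DMR at their facing starts, and no list showed H3K9me3 there. The other 7 lie at a distance from the DMR of their cluster. The remaining 5 genes were held in some lists: Peg3, Snrpn, Slc38a4 and Zdbf2 in 3 lists, all but ground-state replicate 1, the shortest list, and Rtl1 in 2. Slc38a4, an amino acid transporter gene, had peaks of 2.59 and 4.06 kb across its outer start at day 1, against none and 3.01 kb in the ground state. Zdbf2, a zinc finger gene, had a peak 30.0 kb inside its body, of 1.23 and 3.27 kb at day 1, against none and 2.56 kb in the ground state. Rtl1, a retrotransposon-derived gene needed in the placenta, had 1 peak in replicate 2 of either group, 3.58 kb wide at day 1 and 2.83 kb in the ground state.

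**Figure D2:**
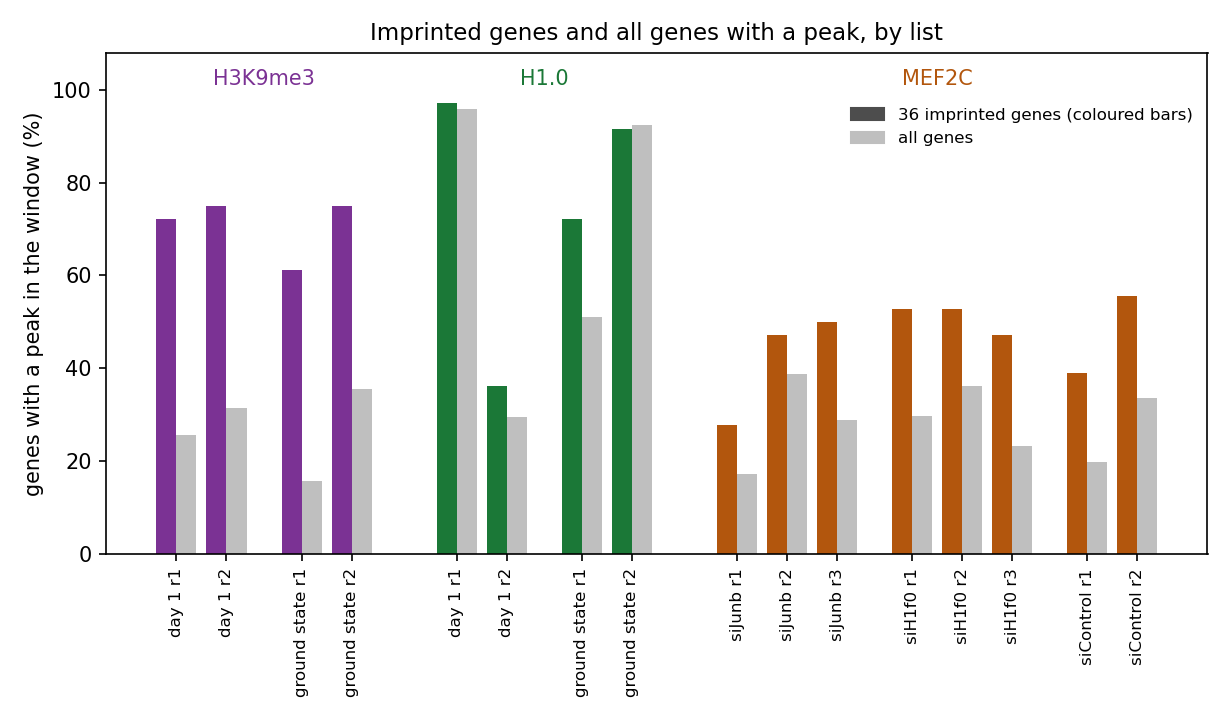
Percent of the 36 imprinted genes (coloured bars) and of all 49943 genes (grey bars) with a peak in the gene window, for each of the 16 lists, 1 list per pair of bars. For H3K9me3 the imprinted genes stand at 61.1% to 75.0% and all genes at 15.7% to 35.6%, whereas for H1.0 the paired bars differ less.

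The mark was also read at gene starts, where window length plays no part. Within 1 kb of a start, H3K9me3 was present in all 4 lists at 11 of the 45 starts of imprinted genes, against 2.07% of all 32851 starts. These starts belong to 10 of the 28 genes with a promoter entry: Airn, Commd1, Grb10, Mcts2, Meg3, Mest, Nap1l5, Nnat, Plagl1 and Zrsr1. The Commd1 start is its inner one, which faces Zrsr1. By group, 12 starts had the mark in both day 1 lists, against 4.23% of all starts, and 12 in both ground-state lists, against 2.54%.

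Plagl1, a zinc finger protein that restrains growth, carried 1 region of H3K9me3 over its start, chr10:13088620-13095142. The peaks were 3.26 and 6.40 kb wide at day 1, against 3.31 and 5.67 kb in the ground state. Signal here is the authors' whole-number coverage within a peak, and it is compared only within a list. The Plagl1 peaks ranked at the 92.2 and 89.1 percentiles of their lists at day 1 and at the 89.1 and 91.2 percentiles in the ground state.

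Mest, a paternally expressed gene named for its transcription in mesoderm, has an outer start and a pair of inner ones. H3K9me3 covered chr6:30733682-30740492, over the inner starts (position 30738050 for the promoter printed above), with peaks of 4.68 and 6.81 kb at day 1 and 4.45 and 6.49 kb in the ground state. The inner promoter holds the TGCCGC hexamer at 2 places, and no list had H1.0 or MEF2C within 1 kb of that start. The outer start at 30733506 had H3K9me3 within 1 kb in 2 lists.

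Nnat, which encodes a small membrane protein of the endoplasmic reticulum, is a short gene inside its host Blcap. Its start lay under peaks of 3.40 and 8.19 kb at day 1 and 3.90 and 6.79 kb in the ground state (chr2:157556181-157564365). These ranked at the 97.7 and 94.7 percentiles of maximum signal at day 1, and at the 85.9 and 95.5 percentiles in the ground state. The start of Blcap itself lay 2.00 kb or more beyond these peaks.

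Nap1l5, a gene that arose by retrotransposition, carried peaks at its start of 4.48 and 5.60 kb at day 1 and 1.54 and 5.43 kb in the ground state. Zrsr1, a splicing factor gene of the same origin inside Commd1, lay in a region whose widest peaks were 1.25 and 5.59 kb at day 1 and 2.86 and 9.14 kb in the ground state. The Zrsr1 region, chr11:22965542-22974950, also holds the inner start of Commd1, so the values of both genes are the same peaks. Peg13, a noncoding RNA inside Trappc9, lay under peaks of 1.98 and 3.54 kb at day 1 and 3.24 and 6.01 kb in the ground state (chr15:72807293-72813299).

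**Figure D3:**
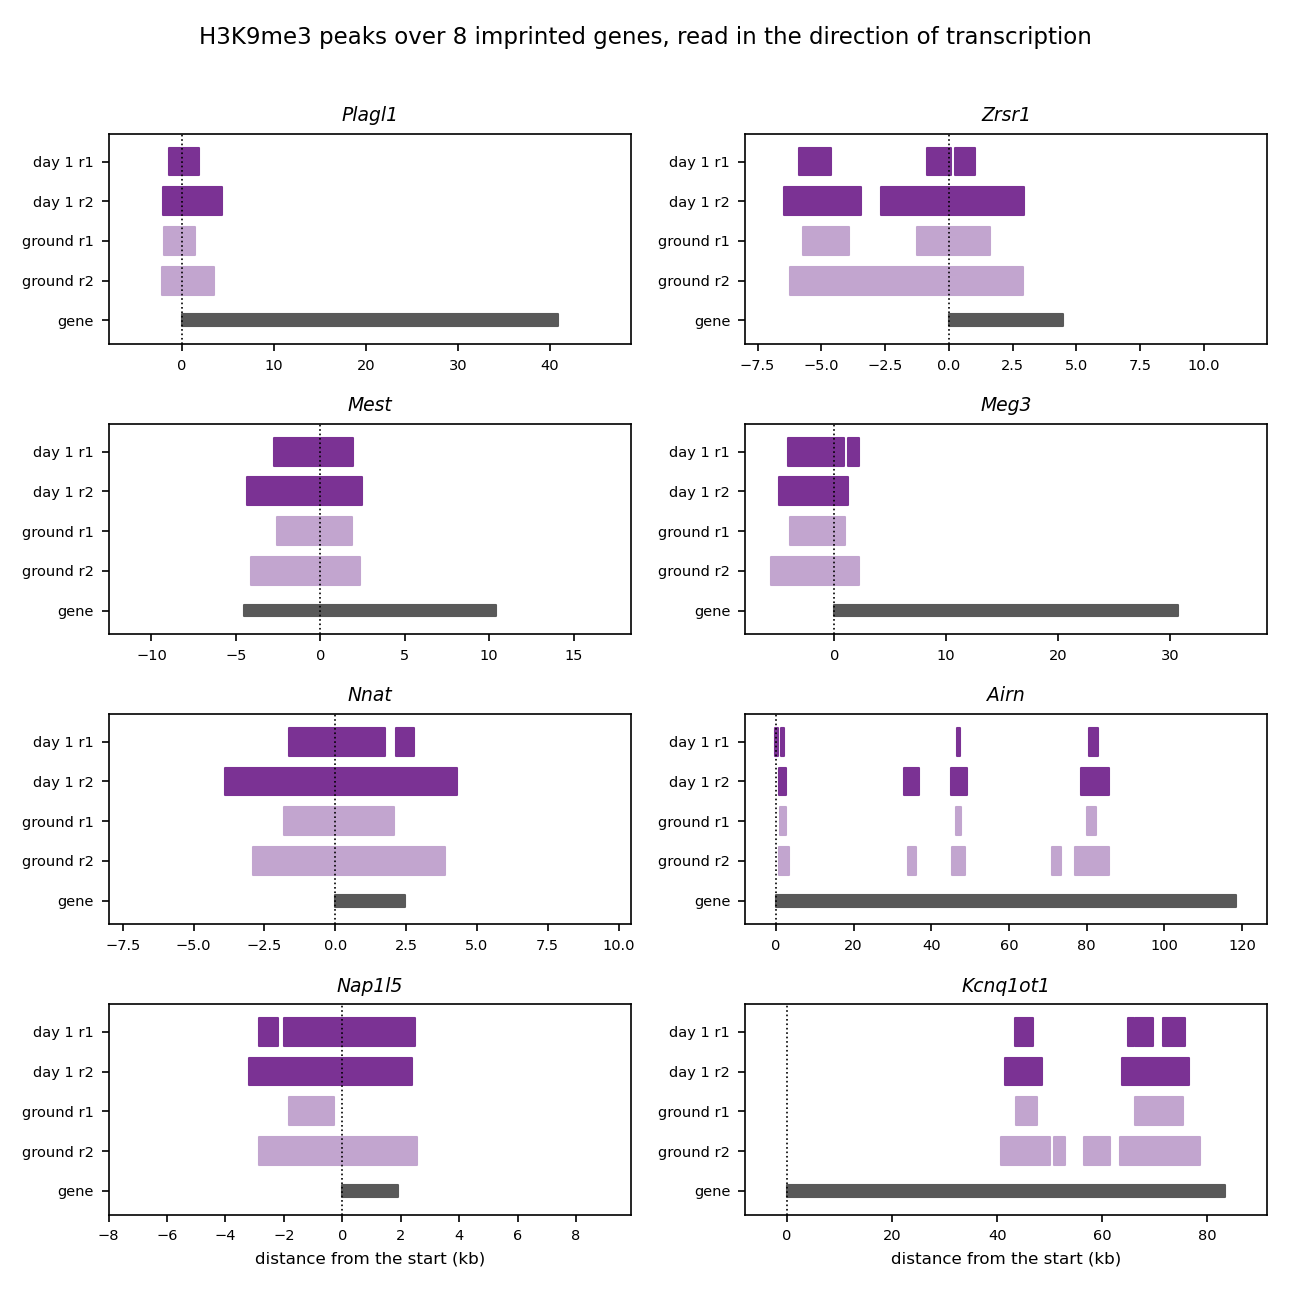
H3K9me3 peaks (bars; dark for day 1, light for the ground state, 1 row per list) over 8 imprinted genes, with distance from a start in kb on the x axis, read in the direction of transcription, and the gene as a grey bar. At Plagl1, Mest, Nnat, Nap1l5, Zrsr1 and Meg3 the peaks lie at or across the start, while at Kcnq1ot1 they lie 40.7 kb or more downstream of it.

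H3K9me3 peaks were sorted by width: a short peak is under 5 kb, a domain is 10 kb or more, and an intermediate peak lies between. A short peak within 1 kb of an annotated gene end was found in all 4 lists at 3 genes, Airn, Mcts2 and Grb10, against 0.861% of all genes, and in at least 1 list at 13 genes, against 16.3%. No imprinted gene held a domain in all 4 lists, against 0.23% of all genes. Domains were found at Peg3 and Kcnq1ot1, in 2 lists each. With short peaks allowed up to 10 kb, a choice made after the values were seen, 9 genes qualified, against 1.88% of all genes: Nap1l5, Airn, Peg13, Zrsr1, Mcts2, Plagl1, Grb10, Meg3 and Nnat. With only peaks at or above their list's median total signal, the count of short peaks at a gene end was 0. Total signal is summed over the width of a peak, so this filter works against short peaks and cannot decide whether they are weak.

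Airn, the paternally expressed RNA that silences its overlapping neighbour Igf2r, had short peaks within 1 kb of its start, though not all at 1 place. They were 0.723 and 1.77 kb wide at day 1, against 1.58 and 2.51 kb in the ground state. In 3 of the 4 lists the peak began 0.797 to 0.980 kb downstream of the start, near the limit of 1 kb, in a region found in all 4 lists. In day 1 replicate 1 the peak of that region was 0.77 kb wide and 1.23 kb downstream, beyond the limit. The 0.723 kb peak counted for that list lay across the start, in a separate region found in 1 list. Both places lie inside the body of Igf2r, the receptor that removes IGF2. Airn also held 2 more regions in all 4 lists, 1 of them 45.2 kb downstream of its start and the other 32.7 kb before its far end.

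Mcts2, a retrogene inside H13, had peaks of 1.46 and 3.20 kb at day 1, against 1.16 and 3.26 kb in the ground state (chr2:152685086-152688388). The wider peak of each group crossed the start and the narrower ended 0.383 kb (day 1) and 0.238 kb (ground state) before it. Under the cut-off of 3 kb for a short peak, Mcts2 left the count and Airn and Grb10 stayed.

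Grb10, an adaptor that damps insulin signalling and is expressed from the maternal copy outside the brain, held 4 regions in all 4 lists. At its outer start the peaks were 0.654 and 2.53 kb wide at day 1, against 1.87 and 1.76 kb in the ground state, and began 0.309 to 0.512 kb before the gene. The inner start at position 12027971 lies in a second region, chr11:12021060-12029441, with peaks of 2.97 and 1.86 kb at day 1 and 3.60 and 8.38 kb in the ground state. It was within 1 kb of a peak in 3 lists.

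Peg3, a zinc finger gene expressed from the paternal copy, differed between lists of the same group. At day 1, replicate 1 held peaks of up to 2.03 kb and replicate 2 held domains of 16.8 and 12.4 kb, the second across the start. In the ground state, replicate 1 held no peak in the window and replicate 2 held a domain of 12.1 kb and an intermediate peak of 8.92 kb across the start. The lists with domains are those that cover the most sequence.

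Kcnq1ot1, the noncoding RNA whose transcription silences its cluster, has its DMR at its start, and no list showed H3K9me3 within 1 kb of that start. The mark lay further along the gene, at chr7:143217884-143233102 and chr7:143246465-143255798. The widest peaks were 4.28 and 12.8 kb at day 1, against 9.16 and 15.2 kb in the ground state. They ranked high within their lists, at the 95.8 and 90.4 percentiles of maximum signal at day 1 and at the 94.9 and 89.5 percentiles in the ground state. Snrpn, a splicing protein gene at the head of the Prader-Willi cluster, also had no H3K9me3 within 1 kb of any of its 4 annotated starts, and its scattered peaks reached 0.971 and 8.21 kb at day 1 and 5.80 kb in ground-state replicate 2.

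**Figure D4:**
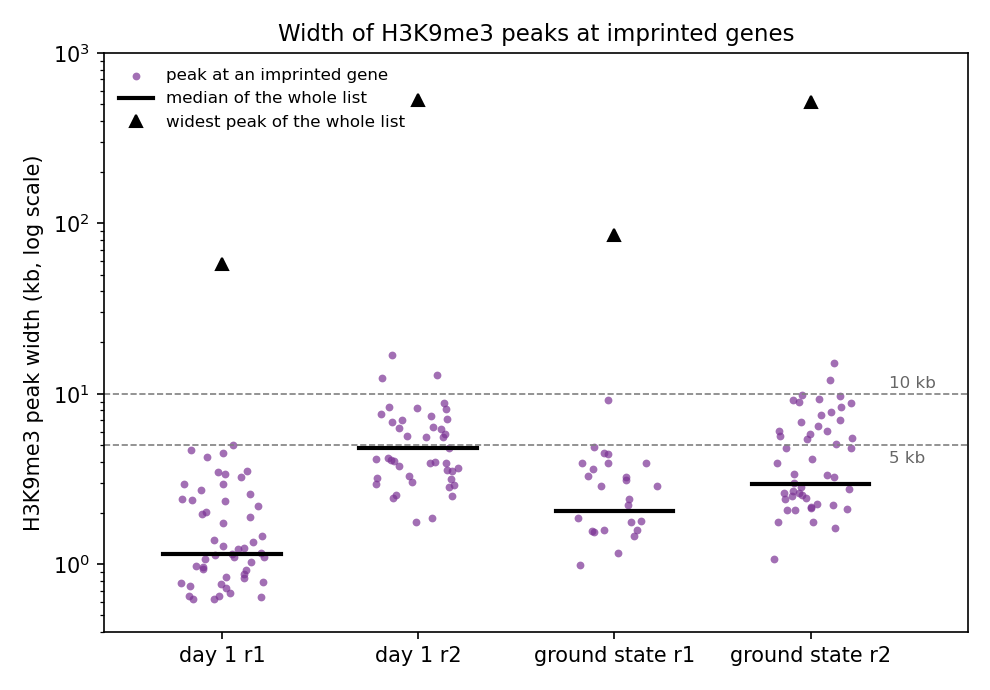
Width of every H3K9me3 peak in the windows of the imprinted genes (points; log scale in kb, 1 column per list), with the median (line) and the widest peak (triangle) of the whole list. Points reach at most 16.8 kb at day 1 and 15.2 kb in the ground state, while the widest peaks of the lists reach 528 kb and 515 kb.

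The peaks at imprinted genes had median widths of 1229 and 4115 bp at day 1, against 1154 and 4788 bp over the whole lists, and of 2856 and 3939 bp in the ground state, against 2049 and 2967 bp. The windows held 51 and 43 peaks at day 1 and 25 and 49 in the ground state, of which 50 and 24 were short at day 1 and 24 and 28 in the ground state. Domains made up 0% and 6.98% of these peaks at day 1, against 0.275% and 17.6% of all peaks of those lists, and 0% and 4.08% in the ground state, against 1.01% and 7.04%. When the 4 lists were merged, 25 regions at imprinted genes, in 17 loci, were found in all 4. They had a median width of 7191 bp, where the 12691 such regions of the genome had 7034 bp, and 8.0% reached 10 kb, against 33.2%. The 2 that reached 10 kb are at Kcnq1ot1 and Peg3. The Peg3 region, chr7:6691508-6702530, counts by its merged extent only, since in replicate 1 of either group its peak lay outside the gene window. Of these 25 regions, 12 touched or lay within 1 kb of a gene end or start, and 13 did not.

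The positions of the DMRs themselves were not in the files used here, so H3K9me3 near known control regions is placed by its distance from annotated gene ends. H19, a maternally expressed noncoding RNA, shares with Igf2 a control region a short way upstream of H19. The nearest region in all 4 lists, chr7:142579842-142582670, began 1.70 kb beyond the end of H19 that faces Igf2, with peaks of 1.13 and 2.83 kb at day 1 and 0.982 and 2.63 kb in the ground state. Igf2, a fetal growth factor, had a region of its own in all 4 lists beginning 0.763 kb beyond its outermost start, with peaks of 1.89 and 4.82 kb at day 1 and 3.11 and 3.94 kb in the ground state.

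In the Dlk1-Meg3 cluster, Meg3, a maternally expressed noncoding RNA, had the peaks that ranked highest among the 25 regions in each of the 4 lists. They were 5.02 and 6.18 kb wide at day 1 and 4.88 and 7.86 kb in the ground state, across its outer start (chr12:109535366-109543229). Their maximum signal ranked at the 99.4 and 96.7 percentiles of the lists at day 1 and at the 96.8 and 98.4 percentiles in the ground state. The intergenic control region of the cluster lies between Dlk1 and Meg3, outside the gene windows. There, all 4 lists held a peak that ended 7.13 to 10.3 kb before Meg3, with widths of 5.32 and 5.75 kb at day 1 and 6.53 and 8.76 kb in the ground state. Of the other genes, Rian, a noncoding RNA, held a short peak 6.30 to 7.15 kb inside its body in all 4 lists. Dlk1, a membrane protein related to Notch ligands, held none.

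Gnas, which encodes the stimulatory G protein alpha subunit from several promoters, held H3K9me3 in all 4 lists at chr2:174294074-174301711, 9.75 kb inside the annotated gene. Its peaks there reached 2.41 and 7.64 kb at day 1, against 1.76 and 7.03 kb in the ground state. Of its 4 annotated starts, the outermost had H3K9me3 within 1 kb in 1 list and the other 3 in none. Inpp5f, a phosphoinositide phosphatase gene, has an imprinted short transcript that starts inside it, and a region near its far end, chr7:128682492-128690340, was held in all 4 lists, as was another upstream of the gene. Impact, a regulator of protein synthesis, held H3K9me3 in all 4 lists between 13.9 and 21.1 kb inside the gene, with peaks of 1.74 and 7.0 kb at day 1 and 2.40 and 6.03 kb in the ground state. Impact has no promoter entry, so these distances run from an annotated gene end and do not place the mark against a start.

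Between day 1 and the ground state, no imprinted gene gained or lost H3K9me3 by the rule used, which asks for a peak in both lists of 1 group and in neither of the other. The count was 0 higher at day 1, against 0.587% of all genes, and 0 lower, against 0.172%. By the percent of the window covered, with groups that do not overlap, the counts were also 0 higher, against 1.23%, and 0 lower, against 0.438%. Among the 27 genes with any coverage, the smallest two-sided exact permutation p was 0.667, in a design of 2 against 2 lists whose smallest possible p is 0.333. Without ground-state replicate 2, 4 genes would be called higher at day 1, against 8.74% of all genes. They are Peg3, Snrpn, Slc38a4 and Zdbf2, which are the genes missing from ground-state replicate 1. These counts do not pair the lists. Deviations of same-numbered lists from their group means correlated at 0.79. With 2 lists per group this is 1 value, and replicate 2 covered more sequence than replicate 1 in both groups. It therefore cannot show what same-numbered lists share. With same-numbered lists as pairs, 11 genes had more of the window covered at day 1 in every pair, against 10.2% of all genes. Another 8 had less, against 3.45%.

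H1.0 was present at the imprinted genes in shares that followed those of all genes from list to list. The lists held 35 and 13 of the 36 genes at day 1, against 26 and 33 in the ground state, where they held 95.9% and 29.5% of all genes at day 1 and 51.1% and 92.5% in the ground state. Both day 1 lists held 13 genes, against 29.4% of all genes, and both ground-state lists held 25, against 49.8%. All 4 lists held 11 genes, against 23.1% of all genes: Igf2r, Airn, Kcnq1ot1, Snrpn, Trappc9, H13, Plagl1, Grb10, Rtl1, Inpp5f and Zdbf2. The covered share of the joined windows was 38.1% and 0.971% at day 1, against 38.8% and 1.36% over all genes, and 4.79% and 40.1% in the ground state, against 4.48% and 43.5%. At equal covered length both day 1 lists held 5 genes, against 8.42% of all genes, and both ground-state lists held 3, against 3.2%. With stricter peaks both day 1 lists held 3.

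H1.0 overlapped the H3K9me3 regions of the imprinted genes in some lists and not in others. Of the 25 regions present in all 4 H3K9me3 lists, H1.0 peaks overlapped 22 and 0 at day 1, against 9 and 12 in the ground state. As shares these are 88.0% and 0% at day 1, where 91.9% and 13.0% of the genome's regions were overlapped, and 36% and 48.0% in the ground state, where 30.5% and 82.3% were. No start of an imprinted gene had H1.0 within 1 kb in all 4 lists, against 1.98% of all starts. Meg3, Nap1l5 and Gnas, with regions of H3K9me3 in all 4 lists, had H1.0 over those regions in none.

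For H1.0, 1 gene, Phlda2, was higher at day 1, against 0.166% of all genes, and 0 were lower, against 0.042%. H1.0 covered 8.12% and 8.66% of the Phlda2 window at day 1, against 0% and 0% in the ground state, so that the groups do not overlap. By covered percent Phlda2 was likewise the 1 gene higher, against 0.31% of all genes, and 0 were lower, against 0.424%. Each day 1 list held 1 peak there, 0.973 and 1.00 kb wide, with a maximum signal of 5 and 4, at the 31.2 and 38.9 percentiles of its list. The mean was 8.39% ± 0.384 at day 1 and 0% in the ground state (SD, n = 2 each). The exact permutation p, two-sided, was 0.333, the smallest that 2 against 2 lists allow. The call was absent over the gene body alone, with stricter peaks and at equal covered length. Without day 1 replicate 1, the longer of the day 1 lists, 14 genes would be called lower at day 1, against 26.7% of all genes, and without ground-state replicate 1 Ndn would be, among 537 of all 49943 genes. Peg3 without day 1 replicate 2, against 3.32% of all genes higher, and Cdkn1c without ground-state replicate 2, against 6.1%, would join Phlda2 as higher at day 1.

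MEF2C, the induced heart factor, was present at 10 to 20 of the 36 imprinted genes in a list. Lists held 10, 17 and 18 genes under siJunb, against 17.2%, 38.7% and 28.8% of all genes. Under siH1f0 they held 19, 19 and 17, against 29.7%, 36.2% and 23.1%, and under siControl 14 and 20, against 19.7% and 33.5%. Every list of the group held 9 genes under siJunb, against 13.5% of all genes, 14 under siH1f0, against 19.2%, and 14 under siControl, against 18.3%. Without siJunb replicate 1, the shortest list, the siJunb count was 15. At equal covered length the counts were 8 under siJunb, 5 under siH1f0 and 7 under siControl, against 6.86%, 4.94% and 7.37% of all genes in the same order. All 8 lists held 9 genes, against 9.95% of all genes: Sgce, Igf2r, Airn, Trappc9, Commd1, Grb10, Gnas, Inpp5f and Slc38a4. Of these, 6 are host or long genes with a DMR inside the body. None of the 8 lists held another 9, against 48.0%: Peg3, H19, Igf2, Cdkn1c, Phlda2, Snrpn, Ndn, Magel2 and Mkrn3. Windows were longer for the imprinted genes, with a median of 38.7 kb against 16.0 kb over all genes. MEF2C covered 0.85% to 3.58% of their joined windows under siJunb, against 0.734% to 4.23% over all genes. The shares were 1.53% to 4.04% under siH1f0, against 1.22% to 4.96%, and 1.05% and 3.2% under siControl, against 0.827% and 3.48%. The part of window length in the counts was not tested.

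Of the 98 MEF2C regions at imprinted genes, 9 were in all 8 lists (9.18%, against 5.58% of all MEF2C regions). In each list the region at Gnas had the highest signal of the 9. There, chr2:174341278-174345420, which ends 1.32 kb before the far end of the gene, reached a maximum signal of 16, 40 and 41 under siJunb, 71, 105 and 34 under siH1f0, and 29 and 117 under siControl. Grb10 held 2 regions in all 8 lists and Slc38a4 another 2. Igf2r and Airn share 1, and Trappc9, Sgce and Inpp5f have 1 each. Of these 9 regions, 1 lay within 1 kb of a gene end or start (Trappc9, chr15:73060072-73069989), and 0 overlapped H3K9me3 found in all 4 lists. Over the genome 3.36% of the regions in all 8 lists did. Within 1 kb of a start, MEF2C was present in all 8 lists at 0 of the 45 starts, against 4.18% of all starts.

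MEF2C met H3K9me3 at a few places. It overlapped 1, 5 and 2 of the 25 H3K9me3 regions under siJunb, 3, 4 and 2 under siH1f0, and 2 and 4 under siControl. In shares this is 4.0% to 20.0% under siJunb, 8.0% to 16.0% under siH1f0 and 8.0% to 16.0% under siControl, against 3.06% to 15.5% of the genome's regions across the same lists. Inside Impact the overlap was found in 7 of the 8 MEF2C lists, with a maximum signal of 4, 0 and 6 under siJunb, 14, 15 and 7 under siH1f0, and 11 and 19 under siControl. At the region across the start of Mcts2, chr2:152685086-152688388, the overlap was found in 1 siJunb list, 1 siH1f0 list and 0 siControl lists. Slc38a4 held a region of H3K9me3 in 3 of the 4 lists, chr15:97000800-97005186, that MEF2C overlapped in all 8 lists. The MEF2C region there reached a maximum signal of 8, 13 and 26 under siJunb, 39, 50 and 12 under siH1f0, and 12 and 37 under siControl.

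Under siJunb, 1 imprinted gene, Kcnq1ot1, was called lower for MEF2C. By the rule on presence, 0 genes were higher, against 0.497% of all genes, and 1 was lower, against 0.917%. By covered percent 0 were higher, against 0.831%, and the same gene was lower, against 1.68%. The region lay over the start of Kcnq1ot1, chr7:143292784-143297325, the start that had no H3K9me3. Its maximum signal was 0, 0 and 0 under siJunb, where 0 means that no peak was called, and 11, 13 and 11 under siH1f0, against 12 and 12 under siControl. Every siH1f0 and siControl list held the region and no siJunb list did. MEF2C covered 0%, 0% and 0% of the window under siJunb, against 0.749% and 3.79% under siControl, a difference of -2.27 percentage points. The exact permutation p, two-sided, was 0.2, the smallest that 3 against 2 lists allow. The maximum signal ranked at the 74.3 and 20.9 percentiles of the siControl lists.

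Kcnq1ot1 was called when any list was left out, and without siControl replicate 1 Mest, Nnat and Blcap were called lower as well, against 4.37% of all genes. It was not called with stricter peaks or at equal covered length. At equal covered length Rian and Rtl1 were called lower, against 0.491% of all genes. They share 1 MEF2C region in the siControl lists, chr12:109594034-109600222, so they are not 2 separate places. Of the 17 MEF2C regions at imprinted genes in both siControl lists, the region at Kcnq1ot1 was the 1 found in no siJunb list. Over the genome 14.1% of the 10802 such regions were lost. Gained regions, in all 3 siJunb lists and no siControl list, numbered 0, against 0.401%. The promoter of Kcnq1ot1 printed above holds neither TGANTCA nor the MEF2 motif, which says only that these letters are not in this window.

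Under siH1f0, no imprinted gene gained or lost MEF2C by presence. The count was 0 higher, against 0.378% of all genes, and 0 lower, against 0.152%. No region in both siControl lists was absent from all 3 siH1f0 lists, against 1.78% of the genome's, and 0 were gained, against 0.701%. By the percent of the window covered, 0 genes were lower, against 0.254% of all genes, and Mcts2 was higher, against 1.42%, with 18.9%, 18.3% and 20.0% under siH1f0, against 0% and 14.5% under siControl. The means were 19.1% ± 0.866 under siH1f0 (SD, n = 3) and 7.26% ± 10.3 under siControl (SD, n = 2), and the exact permutation p, two-sided, was 0.2, the smallest possible. Leaving out 1 list moved the calls: Peg10 was higher without siH1f0 replicate 3, against 1.59% of all genes, Mcts2 and H13 were higher without siControl replicate 2, against 4.58%, and Mest was lower without siControl replicate 1, against 2.08%.

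Other genes of the system were read in the same way. Among 23 more imprinted genes with a position, 3 held H3K9me3 in all 4 lists, against 14.4% of all genes, and 13 held it in none, against 60.8%. The 3 were Rasgrf1, an exchange factor for Ras, Zim1, a zinc finger gene near Peg3, and Kcnq1, a potassium channel gene whose body holds Kcnq1ot1. Among 18 genes of the machinery that keeps imprints, 5 held H3K9me3 in all 4 lists, against 14.4% of all genes: Zfp445 and Setdb1, which help to set the mark at control regions, Smchd1 and Cbx3, proteins of silent chromatin, and Tet2, an enzyme that oxidises methylated cytosine. Another 11 held none in any list, against 60.8% of all genes, among them Zfp57, Trim28 and Uhrf1, a partner of the maintenance methyltransferase.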

How the data were processed

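CUT&RUN peak lists of 16 of the 24 samples in the labels were used, 1 list per sample. Bowtie2, SEACR and the build mm10 are named, without versions, per the submitters' processing notes. The deposited values are signal, the authors' whole-number coverage of a peak and its maximum, with no scaling to depth stated, so they were ranked only within a list. Coordinates are 1-based. Gene ends came from RefSeq (GRCm38.p6), and starts and strands from its promoter table.

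A gene was held when a peak overlapped its body plus 5 kb each side by at least 1 bp. It was called between groups when every list of 1 group and none of the other held it. Covered percents of single genes were compared by two-sided exact permutation tests over lists. These cannot reach 0.05, since the smallest p is 0.333 for 2 against 2 and 0.2 for 3 against 2. The genes, role lists, motifs and tests were chosen with earlier results of these data known. All 36 genes are described, and those with a short peak at a gene end, a domain or a call are given in every list. The code was tested on simulated data. Python 3.11.15, numpy 2.4.6, pandas 2.3.3, scipy 1.17.1 and matplotlib 3.10.9 were used. Replicate numbers give 2 pairs at most and no label says what they share, so lists were not paired in the main counts. Counts with same-numbered lists as pairs are given separately.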

Additional observations from a re-analysis of the deposited data

How the results depend on the processing

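Of 166 values recomputed under other settings, 132 stayed within 1.5 times of the reported count. Counts of 0 that stayed at 0 are among the 132, so this tally cannot measure how stable the counts above 0 were. At equal covered length, H3K9me3 held 9 genes at day 1 and 11 in the ground state, H1.0 held 5 and 3, and MEF2C held 5 under siH1f0 and 7 under siControl; 0 genes were called higher and 1 (Sgce) lower for H1.0 (0.3% of all genes lower), 2 lower under siJunb (0.491%) and 1 lower under siH1f0 (0.344%). With stricter peaks, H1.0 held 3 genes at day 1, the H1.0 higher count, the siJunb lower count and the short peaks at a gene end were 0. Over gene bodies alone the H1.0 higher count was 0, by covered percent the siH1f0 higher count was 1, and with short peaks up to 10 kb, added after seeing the data, 9 genes qualified (1.88% of all genes). The cause of these moves was not tested. Rian and Rtl1, the 2 genes lower under siJunb at equal covered length, share 1 MEF2C region.

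Leaving out each list in turn gave 0 to 4 genes higher and 0 to 0 lower for H3K9me3, 1 to 2 higher and 0 to 14 lower for H1.0, 0 to 0 higher and 1 to 4 lower under siJunb, and 0 to 2 higher and 0 to 1 lower under siH1f0. For the 14, 26.7% of all genes were called lower. Genes held ranged from 26 to 27 (day 1) and 22 to 27 (ground state) for H3K9me3, from 13 to 35 and 26 to 33 for H1.0, and from 9 to 15 (siJunb), 14 to 17 (siH1f0) and 14 to 20 (siControl) for MEF2C. Short peaks at a gene end ranged from 3 to 4 and domains from 0 to 0. A group left with 1 list has no spread of its own.

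With the replicate number as a block, where every same-numbered pair must differ one way, counts were 11 higher and 8 lower for H3K9me3 (10.2% and 3.45% of all genes), 1 and 0 for H1.0 (0.579% and 0.527%), 3 and 8 under siJunb (5.59% and 7.68%), and 12 and 0 under siH1f0 (19.2% and 0.765%). Deviations of same-numbered lists from their group means correlated at 0.79 for H3K9me3, -0.53 for H1.0, 0.6 and 0.42 for siJunb, and -0.34 and 0.61 for siH1f0, over the covered percents of the genes. Since the lists also differ in length, these values cannot show what same-numbered lists share. With the H1.0 numbers crossed, added after seeing the data, 1 gene was higher and 11 lower, against 4.17% and 21.5% of all genes. No read depth is known, so a missing peak says only that none was called.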
